A study of Mus musculus with 29 samples.

Results

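A set of 10 transcripts of inflammatory signalling was followed through heart failure and recovery of the mouse heart: the cytokines Il6, Lif, Il1b and Il33, the IL-6 family receptor chains Il6ra, Il6st and Osmr, the IL-1 family receptors Il1r1 and Il1rl1, and the TWEAK receptor Tnfrsf12a. They were taken from the deposited expression table by gene symbol and are 10 of its 29955 genes. Levels are FPKM, fragment counts adjusted for transcript length and library size. Of these transcripts, 7 reached a mean of at least 0.5 FPKM over all libraries and were tested together with 12759 genes in all. Il6, Lif and Il1rl1 stayed below that level and are described by their values, with a fit without this limit given for Il6 and Il1rl1 in HF week 3. The nearest on either side of the limit were Il6ra, with a mean of 0.556 FPKM, and Il6, with a mean of 0.263 FPKM.

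The hearts came from male C57BL6 mice (C57BL/6J in the study's methods) that were 3 months old at the start. For the induction of heart failure (HF) the drinking water held 0.3 mg/ml L-NAME, an inhibitor of nitric oxide synthases, and 1% NaCl, and from the end of the first week an osmotic pump, filled for 28 days, released angiotensin II at 0.7 mg/kg per day. The full course lasted 5 weeks, so that HF week 3 hearts were taken before it was complete and HF week 5 hearts at its end. Recovery mice received the same induction and were then left untreated until week 7, 9, 11, 13 or 19 of the study, which the labels count as week 2, 4, 6, 8 or 14 of recovery; control mice of week 19 were age matched and received neither agent. The 24 libraries used are 5 of Control week 19, 2 of HF week 3, 3 of HF week 5, 2 each of Recovery weeks 7, 9 and 13, 3 of Recovery week 11 and 5 of Recovery week 19. HF libraries were compared with controls of week 19, so that age and treatment cannot be told apart in those comparisons. Libraries carry no animal labels, and p-values measure the spread between libraries. In tissue RNA, fewer cells of a type and less RNA per cell cannot be told apart.

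IL-6 family cytokines signal through receptor complexes that share gp130, the product of Il6st. Il6ra is the binding chain for IL-6, Osmr pairs with gp130 to bind oncostatin M, and Lifr pairs with it to bind LIF; all of these complexes activate JAK kinases and STAT3. In the heart, oncostatin M receptor signalling is known for the dedifferentiation of cardiomyocytes and gp130 for hypertrophy and survival. IL-1 beta (Il1b) acts through Il1r1 and MyD88, and IL-33 (Il33), a nuclear alarmin of stromal, endothelial and mesothelial cells, acts through ST2, the product of Il1rl1. Tnfrsf12a encodes Fn14, the receptor for TWEAK (Tnfsf12), which signals through TRAF adaptors to NF-kappaB and is induced in stressed cardiomyocytes.

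Promoter windows are shown for the members in which a motif of these pathways was found, since STAT, NF-kappaB and AP-1 factors act downstream of the receptors. All 10 members matched RefSeq windows on GRCm38.p6, a later build than the mm9 used for the deposited values, and these windows run from 250 bases before to 50 bases after each start. Both strands were searched for TTCNNNGAA (STAT), the NF-kappaB consensus (GGG, any pair of bases, then TTTCC) and TGANTCA (AP-1); capitals mark a match. The Il6 window is shown for the 250 bases before the start (chr5:30012864-30013113, plus strand), and the Osmr stretch (chr15:6874304-6874333, minus strand) and Lif stretch (chr11:4257328-4257357, plus strand) show the letters around their single match.
Il6: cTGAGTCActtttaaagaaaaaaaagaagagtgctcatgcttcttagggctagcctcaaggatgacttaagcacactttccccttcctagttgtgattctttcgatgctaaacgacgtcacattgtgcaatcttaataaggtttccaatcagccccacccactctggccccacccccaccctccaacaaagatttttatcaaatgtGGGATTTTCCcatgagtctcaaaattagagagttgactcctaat
Osmr: cccctggacacttgccccgtagtTGATTCA
Lif: cccagtcagctgTGACTCAggccatagtgg
The AP-1 letters lay at positions -249 to -243 of Il6, at -228 to -222 of Lif and at 4 to 10 of Osmr, counted from the transcript start. The NF-kappaB letters lay at -44 to -35 of Il6. The shares of all 32851 windows with a match were 7.81% for AP-1, 1.63% for NF-kappaB and 8.3% for STAT. None of the 13 member windows held the STAT letters, which says only that these letters are not in these windows. On the same build Osmr neighbours Lifr on chromosome 15, Lif neighbours Osm on chromosome 11, and Il1r1 and Il1rl1 flank Il1rl2 on chromosome 1.

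Several libraries stood apart, and the calls that rest on HF week 3 library 1 or HF week 5 library 1 are given with and without them. In HF week 3 library 1, 12816 genes were above 0, against 16339 to 18091 in the other 23 libraries, whose relative depth spanned 0.723 to 1.39. Atrial Myl7 was at 1805 and 5773 FPKM in HF week 3 and at 18388, 152 and 6.16 FPKM in HF week 5, and at 0 to 3.56 FPKM in the 19 recovery and control libraries. The labels give whole ventricle as the tissue; the study's methods state that apical portions were frozen for sequencing. Summed over 6 mesothelial markers, the level was 73.4 and 237 FPKM in HF week 3 and 84.6, 32.2 and 11.6 FPKM in HF week 5, against 1.01 to 3.37 FPKM in the other 19. Summed over 5 adipocyte markers it was 214 and 99.8 FPKM in HF week 3 and 240, 223 and 1.51 FPKM in HF week 5, against 0.146 to 1.31 FPKM. The cardiomyocyte gene Myh6 was listed at 0 in every library of Control week 19, HF week 5 and Recovery week 19, and at 37546 to 316195 FPKM in the other groups, so that 0 here can be a failed estimate. HF week 5 library 3 was nearest to the recovery and control libraries in atrial and adipocyte markers.

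**Figure D1:**
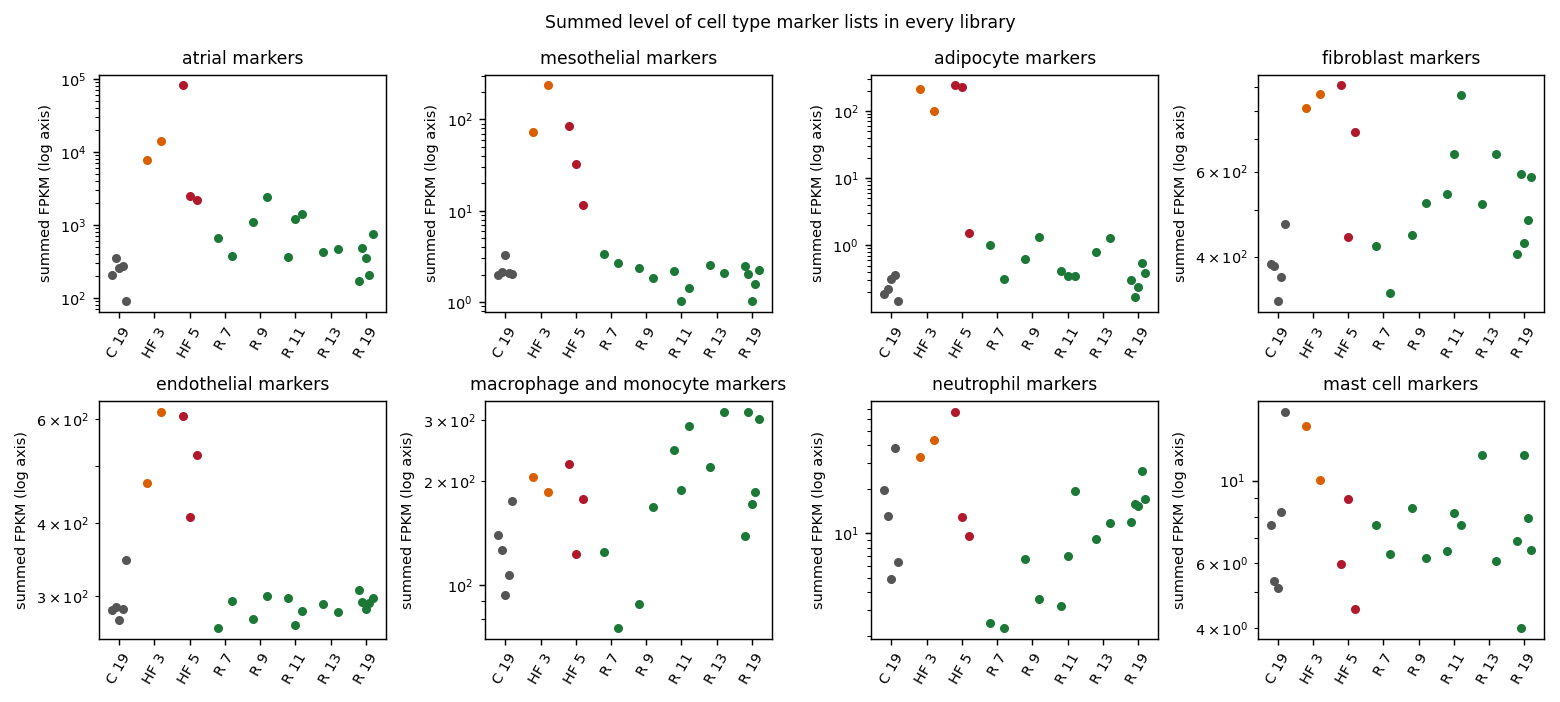
Summed FPKM of 8 cell type marker lists (log axis) in each library, by group; each point is 1 library. In the summed mesothelial, endothelial and adipocyte markers all 5 HF libraries lie above the other groups. For adipocyte markers HF week 5 library 3, at 1.51 FPKM, lies just above the highest other library. Single endothelial genes went the other way. Cdh5 was at 19.6 FPKM in HF week 3 library 1, against 35.0 FPKM or more in the 19 recovery and control libraries. Kdr was at 7.76 and 9.13 FPKM in HF week 3, against 9.65 FPKM or more. Both genes were also below the 19 in HF week 5 library 1.

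In the control hearts of week 19 the members spanned more than 3 orders of magnitude of FPKM. Tnfrsf12a had the highest level at 69.2 ± 18.1 FPKM (SD, n = 5), followed by Il6st at 17.3 ± 1.03 (SD, n = 5), Osmr at 3.81 ± 0.847 (SD, n = 5) and Il1r1 at 2.78 ± 0.440 (SD, n = 5). Il33 was at 1.16 ± 0.166 FPKM (SD, n = 5), Il1b at 0.841 ± 0.504 (SD, n = 5) and Il6ra at 0.457 ± 0.197 (SD, n = 5). Il1rl1, Lif and Il6 were at means of 0.143, 0.0870 and 0.0521 FPKM. Neighbours in this order overlapped between libraries, except that every Tnfrsf12a value lay above every Il6st value, every Il6st value above every Osmr value, and every Il1r1 value above every Il33 value. The order was thus set apart at 3 of its 9 steps.

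**Figure D2:**
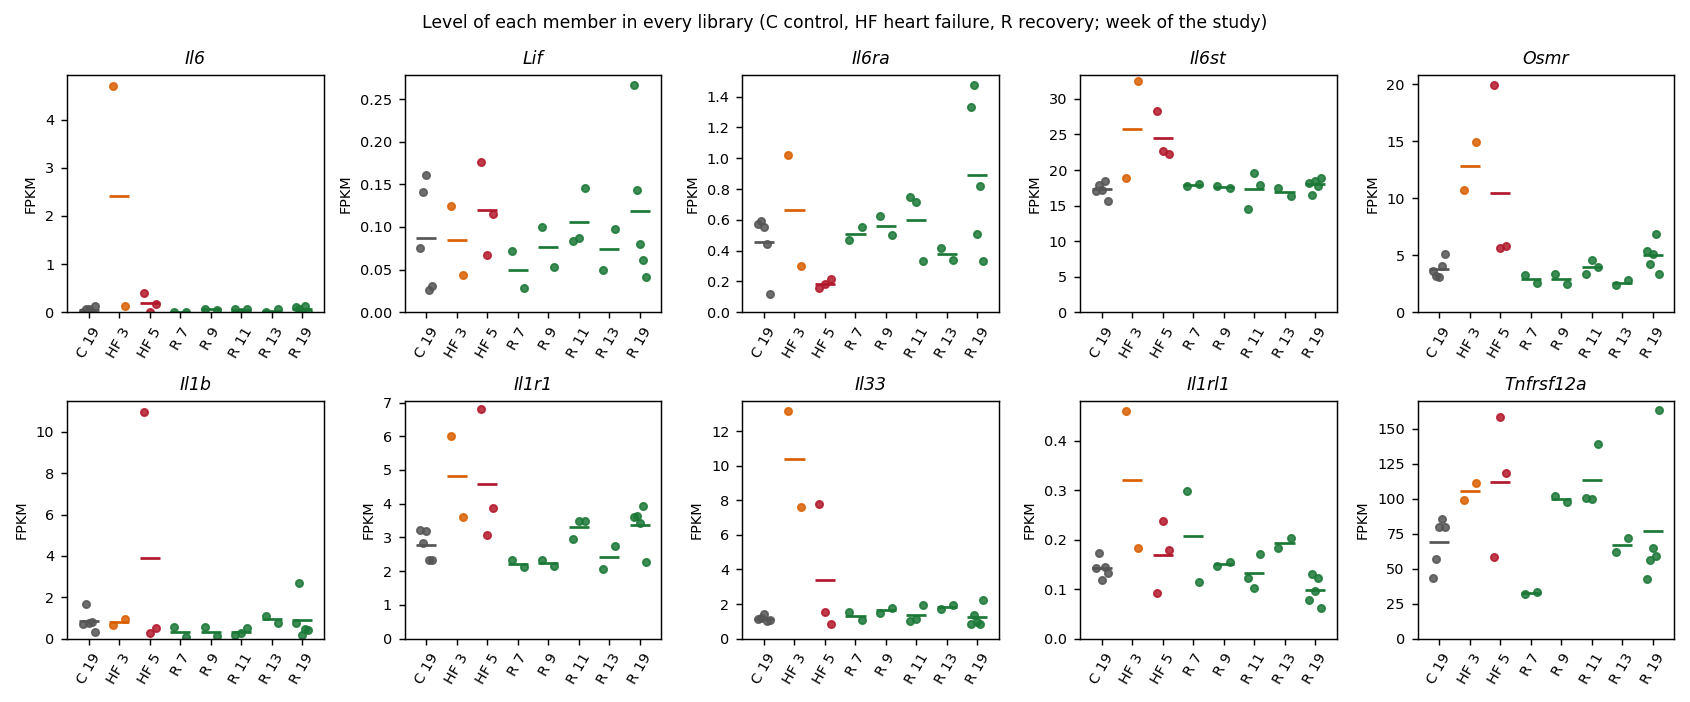
FPKM of each of the 10 members in each of the 24 libraries; points are libraries, horizontal lines are group means, and each panel has its own linear axis from 0. Osmr, Il33 and Il6st are highest in HF libraries, Il6ra is lowest in HF week 5 apart from 1 control library, and single libraries set the highest Il1b, at 10.96 FPKM, and Il6, at 4.70 FPKM.

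At week 3 of induction, Osmr and Il33 were furthest above control among the 7 tested members, also with each HF library alone. By limma with Benjamini-Hochberg adjustment, 4 of the 7 tested members were higher than in Control week 19 and none was lower, against 50.7% of all genes tested called in either direction. The median difference was 0.65 (log2) over the members and -0.05 over all genes. This comparison rests on 2 HF libraries, 1 of which is the library with fewer genes above 0.

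Osmr was at 10.7 and 14.97 FPKM in HF week 3, and at 3.59, 3.14, 3.10, 4.09 and 5.15 FPKM in Control week 19. Both HF libraries thus lay above every control library. The difference was 1.63 on the log2(FPKM + 0.5) scale (SE 0.34, adjusted p = 0.000668), which is 3.10-fold. Without HF week 3 library 1 it was 1.86 (adjusted p = 0.00461), and without library 2 it was 1.40 (adjusted p = 0.0109). Osmr remained higher under all 18 alternatives computed, with adjusted p between 0.00054 and 0.0109.

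Il33 was at 13.1 and 7.63 FPKM in HF week 3, and at 1.15, 1.17, 1.42, 0.988 and 1.06 FPKM in the controls. The highest control library, at 1.42 FPKM, lay far below the lower HF library. The difference was 2.67 (log2, SE 0.45, adjusted p = 9.5e-05), a 6.38-fold higher level. It was 2.30 without library 1 (adjusted p = 0.00655) and 3.05 without library 2 (adjusted p = 0.000189), and Il33 too was called under all 18 alternatives. Summed mesothelial and adipocyte markers and atrial Myl7 were higher in the same libraries, as given above. The atrial marker Nppa, however, was listed at 0 in both, against 81.1 to 2426 FPKM in the 19 recovery and control libraries. The part of these cells in the Osmr and Il33 differences was not tested.

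Il6st and Il1r1 also rose, but each through 1 library. Il6st was at 18.9 and 32.5 FPKM, against 15.7 to 18.4 FPKM in the controls, with a difference of 0.51 (log2, SE 0.15, adjusted p = 0.00952). Without library 2 the difference in Il6st was 0.13 (adjusted p = 0.445), and without library 1 it was 0.90 (adjusted p = 0.000177). Il1r1 was at 6.02 and 3.62 FPKM, against 2.32 to 3.21 FPKM, with a difference of 0.67 (log2, SE 0.23, adjusted p = 0.0229). Without library 1 the difference in Il1r1 was 0.34 (adjusted p = 0.392). The call for Il6st rests on library 2 and that for Il1r1 on library 1.

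Il6ra, Il1b and Tnfrsf12a did not pass the test at week 3. Il6ra was at 1.02 and 0.300 FPKM, one value above and one within the control range of 0.121 to 0.595 FPKM. Il1b was at 0.639 and 0.936 FPKM, within the control range, and the interval of its difference, -1.50 to 1.51 (log2), left both directions possible. Tnfrsf12a was at 99.3 and 111 FPKM, above every control library, with a difference of 0.65 (log2, adjusted p = 0.172).

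The low transcripts showed a single high library. Il6 was at 4.70 FPKM in HF week 3 library 1 and at 0.134 FPKM in library 2. Its values in the controls were 0, 0.0666, 0.0672, 0 and 0.127 FPKM, which the steps of the table place at about 0, 1, 1, 0 and 2 fragments. Here and below a listed 0 is taken as 0 fragments, although it can be a failed estimate. HF week 3 library 1 has no such steps and its fragment number is unknown. In the fit with no filter on low values Il6 was higher in HF week 3 by 1.72 (log2, adjusted p = 0.00706), and without library 1 the difference was 0.21 (adjusted p = 0.597). Il1rl1 was at 0.461 FPKM in library 1 and 0.182 FPKM in library 2, against 0.119 to 0.173 FPKM in the controls. That is 0.33 (log2, adjusted p = 0.0254) in the same fit, and 0.09 (adjusted p = 0.710) without library 1. Lif, at 0.125 and 0.0435 FPKM, lay within the control range of 0.0265 to 0.161 FPKM.

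At the end of induction, in week 5, Osmr, Il6st and Il1r1 were higher than in Control week 19 and no tested member was lower. These are 3 of 7 members, against 24.0% of all genes tested called in either direction. The median difference was 0.62 (log2) over the members and 0.04 over all genes. With HF week 5 library 1 left out, the middle of the 7 member differences was that of Il1r1, at 0.28. Without HF week 5 library 1, the library with the highest atrial and neutrophil markers, 0 of 7 members were called by limma, and 0 with library 3 as the only HF week 5 library; of all genes tested, 10.6% and 3.24% were then called. The members at an unadjusted p under 0.05 were 3 with all libraries, 3 without library 1 and 0 with library 3 alone, against 36.5%, 26.0% and 18.9% of all genes.

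**Figure D3:**
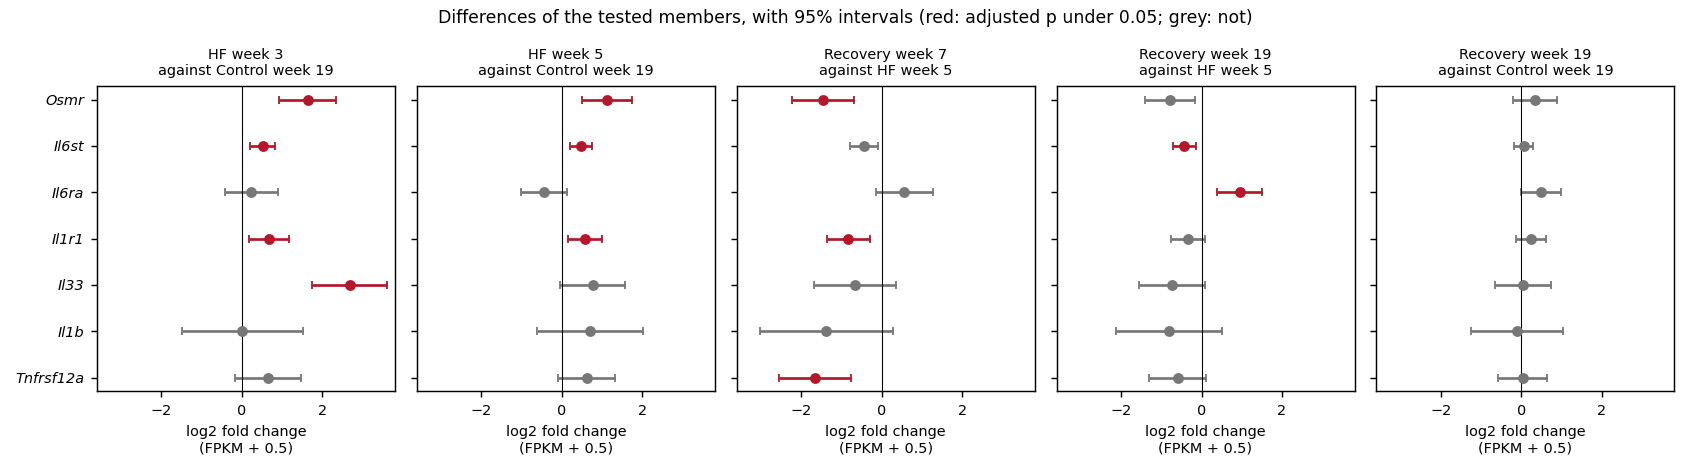
Difference of each tested member in 5 comparisons, on the log2(FPKM + 0.5) scale, with 95% intervals from limma; red marks an adjusted p under 0.05. Osmr lies at 1.63 in HF week 3 and 1.12 in HF week 5 and at 0.34 in Recovery week 19 against control, where no member is red.

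Osmr was at 19.98, 5.67 and 5.78 FPKM in the 3 HF week 5 libraries. All were above the highest control library, at 5.15 FPKM, but libraries 2 and 3 only narrowly. The difference was 1.12 (log2, SE 0.30, adjusted p = 0.0105), and it was 0.55 without library 1 (adjusted p = 0.116) and 0.56 with library 3 alone (adjusted p = 0.317).

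Il6st, the shared signal chain, was at 28.4, 22.7 and 22.3 FPKM in HF week 5. These 3 values lay above all 19 recovery and control libraries, which spanned 14.6 to 19.6 FPKM. The difference from Control week 19 was 0.48 (log2, SE 0.13, adjusted p = 0.0139), or 1.40-fold. It was 0.37 without library 1 (adjusted p = 0.112) and 0.36 with library 3 alone (adjusted p = 0.340), so that the level moved little while the call was lost. Endothelial markers, summed over 8 genes, were at 608, 409 and 522 FPKM in HF week 5 and at 265 to 345 FPKM in the 19 recovery and control libraries. In library 1, however, 2 of these markers, Cdh5 at 33.01 FPKM and Kdr at 5.86 FPKM, lay below all 19, which were at 35.0 FPKM or more and 9.65 FPKM or more. Smooth muscle and pericyte markers, summed over 7 genes, were at 223 and 199 FPKM in HF week 3 and at 185, 264 and 183 FPKM in HF week 5, against 87.5 to 181 FPKM in the 19. Of these 7 genes, the pericyte marker Rgs5 went the other way in library 1 of both HF weeks. It was at 7.98 FPKM in HF week 3 library 1 and 8.13 FPKM in HF week 5 library 1, against 14.4 FPKM or more in the 19. In the other HF libraries Rgs5 lay within the range of the 19. The part of endothelial, smooth muscle and pericyte cells in the Il6st level was not tested.

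Il1r1 was at 6.81, 3.06 and 3.88 FPKM, so that library 2 lay within the control range. The difference was 0.57 (log2, SE 0.20, adjusted p = 0.0470), or 0.28 without library 1 (adjusted p = 0.394), and its call was lost under 13 of 20 alternatives, with an adjusted p of up to 0.394. Il1b, the ligand of this receptor, was at 10.96 FPKM in library 1 and at 0.260 and 0.518 FPKM in libraries 2 and 3, against 0.305 to 1.67 FPKM in the controls. A single library thus carried the Il1b value, and the difference of 0.70 (log2, adjusted p = 0.448) became -0.53 without it. Neutrophil markers, summed over 6 genes, were at 67.2 FPKM in that library and at 12.9 and 9.65 FPKM in libraries 2 and 3. The sums were at 2.29 to 38.1 FPKM in the 19 recovery and control libraries. In library 1, S100a8 at 40.4 FPKM and S100a9 at 22.2 FPKM made up most of the sum. There 3 of the 6 genes lay above all 19, while Csf3r, Cxcr2 and Mmp8 lay within their range. The part of neutrophils in the Il1b value was not tested.

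Il33 was at 7.77 FPKM in HF week 5 library 1 and at 1.53 and 0.826 FPKM in the other two. The difference from control was 0.77 (log2, adjusted p = 0.161). It became -0.01 without library 1 (adjusted p = 0.989) and 1.31 without library 3 (adjusted p = 0.0211), so that the call depends on the libraries kept. Against HF week 3, Il33 was the 1 tested member called with all libraries, lower by week 5 with a difference of -1.91 (log2, SE 0.49, adjusted p = 0.0149), where 21.4% of all genes tested were called. The 2 groups still overlapped, since library 1 of week 5 lay above library 2 of week 3. Without HF week 5 library 1 the Il33 difference was -2.68 (adjusted p = 2.4e-05), and Osmr was then called too, at -1.08 (adjusted p = 0.00805). Without HF week 3 library 1 the Il33 difference was -1.53 (adjusted p = 0.311). The Il33 call was also lost without HF week 5 library 2 (-1.67, adjusted p = 0.0580) and without library 3 (-1.36, adjusted p = 0.0575).

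Tnfrsf12a was at 58.6, 158 and 118 FPKM in HF week 5, against 43.6 to 85.8 FPKM in the controls. Library 1 was lowest here, while it was highest for Osmr, Il6st, Il1r1, Il33 and Il1b. The difference was 0.62 (log2, adjusted p = 0.197) and 1.02 without library 1 (adjusted p = 0.0675). Its ligand Tnfsf12 (TWEAK) was at 16.1 to 26.6 FPKM in 23 libraries and at 113 FPKM in HF week 3 library 1. Il6ra was at 0.159, 0.186 and 0.215 FPKM in HF week 5, against 0.573, 0.595, 0.555, 0.441 and 0.121 FPKM in the controls. Only control library 5 lay below the HF values, and the difference was -0.45 (log2, adjusted p = 0.243). Il6 was at 0.391, 0 and 0.181 FPKM, which the steps of the table place at about 7.39, 0 and 3.02 fragments, and Lif at 0.0674 to 0.176 FPKM.

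After treatment ended, Osmr lay within or below the control range by week 7 and through week 13. Against HF week 5, Osmr was lower at each of weeks 7, 9, 11 and 13, by 1.45 to 1.58 at weeks 7, 9 and 13. Its values were 3.25 and 2.55 FPKM at week 7, then 3.36 and 2.47 (week 9), 3.33, 4.59 and 3.99 (week 11), and 2.40 and 2.80 (week 13). Every value lay below all 3 HF week 5 values and below the highest control, at 5.15 FPKM. The difference was -1.45 (log2, adjusted p = 0.0142) at week 7, -1.45 (adjusted p = 0.0281) at week 9, -1.06 (adjusted p = 0.0487) at week 11 and -1.58 (adjusted p = 0.0123) at week 13. Without HF week 5 library 1 it was -0.88 (adjusted p = 0.0507), -0.88 (adjusted p = 0.0907), -0.49 (adjusted p = 0.281) and -1.01 (adjusted p = 0.0348), so that only week 13 kept its call. Leaving out any 1 library of the recovery week in question also ended the Osmr call at each of these weeks, with adjusted p of 0.0654 to 0.198. These comparisons share the HF week 5 libraries.

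At week 7, 3 of 7 members were lower than in HF week 5 (Osmr, Il1r1 and Tnfrsf12a), against 14.8% of all genes tested called. At weeks 9, 11 and 13 the counts were 1, 2 and 1 of 7, against 6.57%, 9.77% and 10.4%. At week 9 and week 13 the member called was Osmr; at week 11 Il6st joined it, at 14.6, 19.6 and 18.0 FPKM, with a difference of -0.48 (log2, adjusted p = 0.0470), or -0.37 without HF week 5 library 1 (adjusted p = 0.210). Il1r1 at week 7 was at 2.33 and 2.12 FPKM, with a difference of -0.83 (log2, adjusted p = 0.0351), or -0.54 without HF week 5 library 1 (adjusted p = 0.173). This call was also lost without either week 7 library (adjusted p = 0.127 and 0.192).

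Tnfrsf12a had its lowest values of the whole series at week 7, at 31.6 and 33.3 FPKM. Week 9 had 102 and 97.6 FPKM, week 11 had 100.3, 100.1 and 139 FPKM, and week 13 had 61.7 and 72.2 FPKM. Week 7 lay below every other library, and weeks 9 and 11 above every control library. Against HF week 5 the week 7 difference was -1.65 (log2, SE 0.42, adjusted p = 0.0145), or 3.15-fold lower. It was -2.06 without HF week 5 library 1 (adjusted p = 0.00806), and leaving out either week 7 library gave -1.62 or -1.69 with adjusted p of 0.0973 and 0.0962. At weeks 9 and 11 the difference was -0.05 and 0.11 (log2, adjusted p = 0.960 and 0.888). Whether weeks 7 and 9 differ from each other was not tested.

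At week 19, 14 weeks into recovery, Il6st was lower and Il6ra higher than in HF week 5, 2 of 7 members against 24.2% of all genes tested. Il6st was at 18.2, 16.5, 18.4, 17.7 and 18.9 FPKM, below all 3 HF week 5 libraries. Its difference was -0.43 (log2, SE 0.13, adjusted p = 0.0258), -0.32 without HF week 5 library 1 (adjusted p = 0.166) and -0.40 without Recovery week 19 library 2 (adjusted p = 0.0567). Il6ra was at 1.33, 1.48, 0.509, 0.819 and 0.334 FPKM, all above the HF week 5 values. Its difference was 0.95 (log2, SE 0.27, adjusted p = 0.0169), and 0.92 without HF week 5 library 1 (adjusted p = 0.0672). Il6ra reached the 0.5 FPKM needed for testing only through Recovery week 19, since its mean over the other 19 libraries was 0.467 FPKM, so that its call and its place in the count of 2 are given as a description. With no filter on low values its adjusted p was 0.0253. All 14 recovery libraries were above the 3 HF week 5 libraries in Il6ra, at 0.334 FPKM or more, although no earlier recovery week passed the test. Osmr, at 3.37 to 6.90 FPKM, differed from HF week 5 by -0.79 (log2, adjusted p = 0.0600), and its 5 libraries overlapped with those of HF week 5.

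Between Recovery week 19 and Control week 19, limma called 0 of 7 members and 0.0235% of all genes tested, and 1 member had an unadjusted p under 0.05, as had 2.88% of all genes. That member was Il6ra, with a difference of 0.49 (log2), not called after adjustment. Since Il6ra reached the level for testing only through Recovery week 19, its place in this count is again a description. The intervals bound the differences that remain possible. For Il6st the interval was -0.19 to 0.30 (log2), for Il1r1 -0.14 to 0.60 and for Osmr -0.20 to 0.87. For Il33 it was -0.67 to 0.74, for Tnfrsf12a -0.58 to 0.64 and for Il1b -1.25 to 1.02. The interval of Il6ra, 0.0014 to 0.99, lay above 0, without adjustment for the number of genes. The narrowest interval was that of Il6st, and the widest that of Il1b.

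The genes around the members were followed in 8 lists that hold no member. In HF week 5 against control, 19 of their 77 tested genes were called, near the share of 24.0% over all genes. The count was 7 of 77 without HF week 5 library 1, against 10.6% of all genes, and 1 of 77 with library 3 alone, against 3.24%. With all libraries, library 1 included, the median difference (log2) was 0.34 for IL-6 family ligands, 0.33 for their other receptors and -0.01 for JAK-STAT genes. It was 0.41 for the IL-1 family, 0.26 for IL-1 receptor signalling, 0.46 for TNF and TWEAK genes and 0.10 for NF-kappaB genes. Over all genes it was 0.04. Among them, 1 of 4 tested IL-6 family ligands rose and 1 fell. Cntf, which encodes ciliary neurotrophic factor, was at 14.5, 1.37 and 0.610 FPKM in HF week 5, against 0.207 to 0.449 FPKM in the controls. The Cntf difference was 1.93 (log2, adjusted p = 0.00899), and 0.80 without library 1 (adjusted p = 0.0372). Its recovery and control group means were 0.241 to 0.497 FPKM, so that it reached 0.5 FPKM only through the HF libraries. The call for Cntf and its place in the counts are thus given as a description. Ctf1, which encodes cardiotrophin 1, fell from 3.07 to 7.92 FPKM in the controls to 1.88, 3.17 and 2.60 FPKM, a difference of -1.03 (log2, adjusted p = 0.00354) and of -0.86 without library 1 (adjusted p = 0.0386). The ligand of Osmr, Osm, stayed at or under 1.24 FPKM except in Recovery week 19 library 2, at 4.19 FPKM.

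Of 4 other IL-6 family receptors 0 passed in HF week 5 by limma, against 24.0% of all genes. At an unadjusted p under 0.05 it was 1 of 4, against 36.5%. In HF week 3, 2 of 4 were higher, near the share of 50.7% of all genes called. That comparison includes HF week 3 library 1, the library with fewer genes above 0. Lifr, the neighbour of Osmr, was at 2.99, 2.60 and 2.51 FPKM in HF week 5 and at 3.18 to 3.35 FPKM in the controls. In recovery it was at 2.27 to 3.87 FPKM, and the libraries of weeks 9 and 13 lay below all HF week 5 values. Of 14 JAK-STAT transducers and inhibitors, 1 was higher and 2 were lower in HF week 5, against 24.0% of all genes called. Socs1, a feedback inhibitor of JAK kinases, rose by 0.84 (log2, adjusted p = 0.0381), Cish fell by 0.46 (adjusted p = 0.0345) and Ptpn11, which encodes the phosphatase SHP2, fell by 0.39 (adjusted p = 0.0424). Without HF week 5 library 1 the differences were 0.89 for Socs1 (adjusted p = 0.0954), -0.54 for Cish (adjusted p = 0.0481) and -0.50 for Ptpn11 (adjusted p = 0.0384), so that the Socs1 call was lost. Socs3, the inhibitor that binds gp130, was at 24.0 FPKM in HF week 5 library 1 and at 3.28 and 3.30 FPKM in libraries 2 and 3, against 2.40 to 5.47 FPKM in the controls.

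Among 14 STAT3 and acute-phase targets, 9 were higher and none was lower in HF week 3, with a median difference of 1.54 (log2) against -0.05 over all genes, of which 50.7% were called in either direction. Without HF week 3 library 1, 6 of 14 were higher, and 30.2% of all genes were called. In HF week 5, 2 of 14 were higher, against 24.0% of all genes called. Without HF week 5 library 1 it was 0 by limma, against 10.6%, and 3 at an unadjusted p under 0.05, against 26.0%. Timp1, a metalloproteinase inhibitor, was at 225 and 176 FPKM in HF week 3, at 57.0, 25.1 and 16.2 FPKM in HF week 5 and at 3.86 to 18.3 FPKM in the controls. The Timp1 difference was 4.67 (log2, adjusted p = 9e-06) at week 3 and 1.89 (adjusted p = 0.0159) at week 5, or 4.49 without HF week 3 library 1 (adjusted p = 0.000635) and 1.40 without HF week 5 library 1 (adjusted p = 0.138). Lbp, which encodes the lipopolysaccharide-binding protein, differed by 1.56 (adjusted p = 0.000724) at week 3 and 0.86 (adjusted p = 0.0360) at week 5, or 1.58 (adjusted p = 0.0114) and 0.29 (adjusted p = 0.392) without the same libraries. Fibroblast markers, summed over 10 genes, were at 811 and 867 FPKM in HF week 3 and at 905, 440 and 726 FPKM in HF week 5, against 323 to 866 FPKM in the 19 recovery and control libraries, and their part in these differences was not tested.

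**Figure D4:**
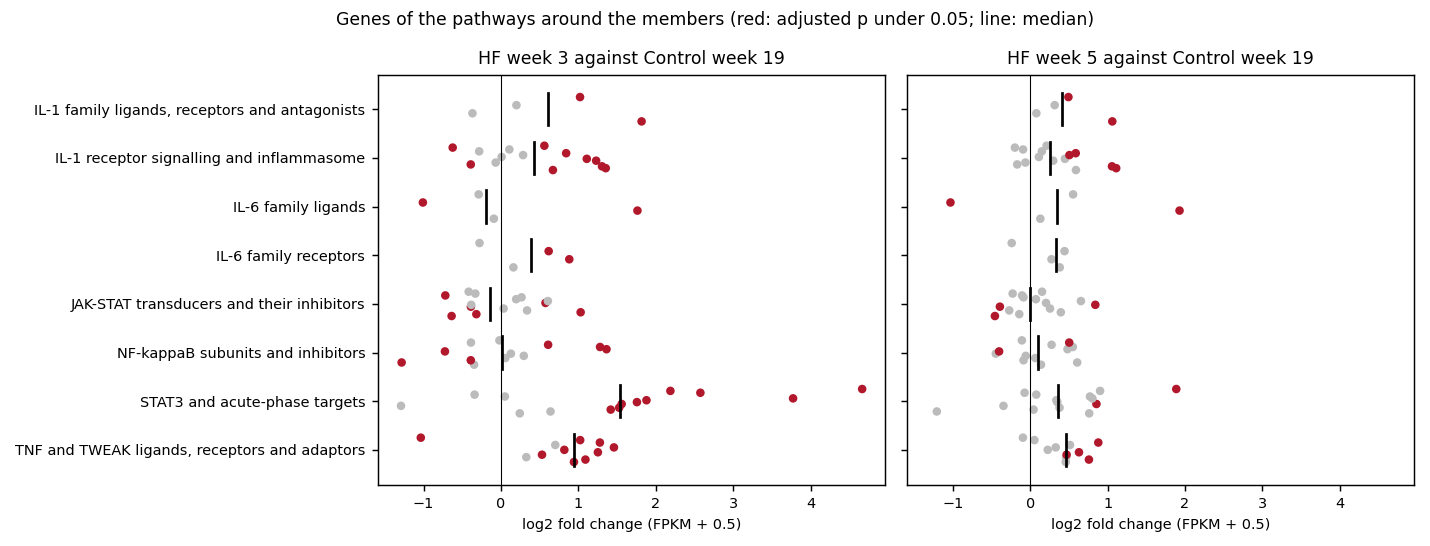
Differences of the genes of 8 pathway lists in HF week 3 and HF week 5 against Control week 19 (log2(FPKM + 0.5) scale); each point is a tested gene, red with an adjusted p under 0.05, and the black line is the median of the list. The STAT3 and acute-phase list has the highest median at week 3, 1.54, and is at 0.37 at week 5.

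Of 4 tested IL-1 family genes that are no members, 2 were higher in HF week 5 and none was lower, against 24.0% of all genes called. Il18 differed by 1.06 (log2, adjusted p = 0.0255) and by 0.73 without library 1 (adjusted p = 0.202). Sigirr, an inhibitory receptor of the family, differed by 0.49 (adjusted p = 0.0455) and by 0.67 without library 1 (adjusted p = 0.0304). Of 14 genes of IL-1 receptor signalling and the inflammasome, 4 were higher in HF week 5 and none was lower, near the same share of 24.0%. Gsdmd, which encodes the pore-forming gasdermin D, was at 11.3, 8.69 and 9.73 FPKM, against 3.76 to 5.67 FPKM in the controls. The difference in Gsdmd was 1.06 (log2, SE 0.13, adjusted p = 5.7e-05) and 0.96 without library 1 (adjusted p = 0.000795). Gsdmd was at 14.1 and 9.84 FPKM in HF week 3 and at 4.34 to 4.83 FPKM in Recovery week 19, so that no HF library overlapped with these groups. Myd88, the adaptor of Il1r1, differed by 0.51 (adjusted p = 0.00909) and by 0.30 without library 1 (adjusted p = 0.107).

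Of 11 tested TNF and TWEAK genes, 4 were higher in HF week 5 and none was lower, and 8 were higher and 1 lower in HF week 3, or 4 and 0 without HF week 3 library 1, against 50.7% and 30.2% of all genes called. Traf1, an adaptor of TNF receptors, was at 2.38, 1.70 and 2.02 FPKM in HF week 5, against 0.615 to 1.21 FPKM, with a difference of 0.88 (log2, adjusted p = 0.00185) that held without library 1 (0.78, adjusted p = 0.0192). Tnfrsf1a, the main TNF receptor, was at 53.5, 27.0 and 32.8 FPKM, against 22.2 to 25.2 FPKM, with a difference of 0.63 (adjusted p = 0.00609), or 0.35 without library 1 (adjusted p = 0.0630). Of 12 tested NF-kappaB subunits and inhibitors, 1 was higher and 1 lower in HF week 5: Relb differed by 0.50 (adjusted p = 0.0485) and Nfkbib by -0.40 (adjusted p = 0.0296), and 0 were called without library 1 by limma, with 4 at an unadjusted p under 0.05. Without that library Relb differed by 0.59 (adjusted p = 0.0765) and Nfkbib by -0.39 (adjusted p = 0.102). Without HF week 5 library 1 the counts of higher genes were 1 of 14 for IL-1 receptor signalling and 1 of 11 for TNF and TWEAK. Of all genes, 10.6% were then called, and 24.0% with all libraries in HF week 5. In Recovery week 19 against control, limma called 0 of the 77 genes of the lists, with 3 at an unadjusted p under 0.05.

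The members also differed from each other in the genes that followed them most closely over the 24 libraries. These correlations of log2(FPKM + 0.5) are descriptions, since the libraries share groups, tissue composition and the 5 HF libraries. Osmr was closest to Csf2rb2, at r = 0.92 over 24 libraries and 0.74 over the 19 recovery and control libraries, then to Rasl11a at 0.91 (0.77) and Foxp1 at 0.91 (0.59). Il33 was closest to Plagl1 at 0.94 (0.43), Gpx3 at 0.93 (0.63) and Cilp2 at 0.93 (0.32). Il6st was closest to Bcr at 0.92 (0.33) and to Muc16 and Dmkn, at 0.90 (-0.03) and 0.89 (0.16). Muc16, a mesothelial mucin, had a mean of 0.0135 FPKM in control, 10.8 in HF week 3 and 2.80 in HF week 5. Without the HF libraries the likeness of Il6st to its 3 nearest genes was thus 0.33 or less.

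Il1r1 was closest to Sash1, at 0.87 over 24 libraries and 0.89 over the 19, then to Socs3 at 0.87 (0.76) and Icam1, an adhesion molecule, at 0.86 (0.64). Tnfrsf12a was closest to Gdi-1 at 0.82 (0.83), Cox19 at 0.80 (0.85) and Nppb, which encodes the natriuretic peptide BNP, at 0.79 (0.81). For Sash1 and the 3 genes nearest to Tnfrsf12a the likeness was slightly higher without the HF libraries. Il1b was closest to Pde4b at 0.84 (0.65), Enc1 at 0.77 (0.71) and Scgb1a1 at 0.77 (0.35), and Il6ra to C78339 at 0.85 (0.78), Zfp574 at 0.84 (0.77) and Tnks1bp1 at 0.84 (0.81). Among the members themselves, Osmr and Il1r1 were most alike, at 0.82 over 24 libraries and 0.68 over the 19. Osmr and Il33, at 0.67 over 24 libraries, were at -0.60 over the 19, and Osmr and Il6st at 0.77 and 0.13.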

How the data were processed

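Polyadenylated RNA was sequenced with paired ends. The authors aligned the reads to mouse genome mm9 with TopHat2 and computed levels with Cuffdiff, and the deposited table holds FPKM per gene and library; the gene annotation and the scaling between libraries are not given in the sources used here. Library depth is not given. The spacing of low values gave relative depth for 23 libraries, and HF week 3 library 1 has no such spacing. Columns were tied to groups by their names; 5 columns of 1 control group with 4 labelled samples were not used, and Recovery week 9 had 2 columns for 3 labelled samples.

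The transcripts and gene lists were chosen with earlier results of these data known, and 1 listed gene is not reported here and was left out of the list counts. Here, log2(FPKM + 0.5) was fitted over genes whose mean reached 0.5 FPKM, with limma 3.58.1 (R 4.3.3; trend, 1 mean per group over 24 libraries, 16 residual degrees of freedom). Calls are two-sided at a Benjamini-Hochberg adjusted p under 0.05 over all 12759 genes; the study used an unadjusted p under 0.05, kept as an alternative. A fold change on this scale understates that of low genes. The fit was tested on simulated data. Named genes are all 10 members, per list up to 2 that rose and 2 that fell in HF week 5 with the smallest adjusted p, and per tested member the 3 genes with the highest r; Lifr, Osm, Socs3, Tnfsf12 and the marker genes were chosen after their values were seen. Alternatives varied the pseudocount, filter, scaling, libraries and samples fitted.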

Additional observations from a re-analysis of the deposited data

Results flagged for a closer look

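Of 20 group values of members in groups of 5 libraries, 2 had a library far from the other 4 by Dixon's test; chance gives about 1 in 20. Il1b in Recovery week 19 library 2 was at 2.68 FPKM, with the others at 0.165 to 0.744 FPKM, and the same library held the highest Osm, at 4.19 FPKM. Tnfrsf12a in Recovery week 19 library 5 was at 163 FPKM, the highest value of the series, with the others at 42.8 to 65.0 FPKM.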

How the results depend on the processing

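Over 21 single-gene comparisons and 387 values under alternatives, 303 kept direction and side of the threshold, 79 lost the call, 1 gained it (Il33 in HF week 5 against control, without HF week 5 library 3) and 4 turned direction. The 4 were in HF week 5 against control: Il1b at -0.53 and Il33 at -0.011 without HF week 5 library 1, and -0.32 and -0.32 with library 3 alone. Leaving out 1 library in turn, Il1b there ranged from -0.53 to 1.42 and Il33 from -0.011 to 1.31. That last alternative, the one of HF week 3 library 2 alone without a filter, and the list counts without 1 library were added after seeing the data.

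Leaving out 1 library in turn, the members called ranged from 0 to 3 in HF week 5 against control, 0 to 2 in HF week 5 against HF week 3, 0 to 4 in Recovery week 19 against HF week 5, 0 to 3 at week 7, 0 to 2 at week 9, 0 to 2 at week 11 and 0 to 2 at week 13, and from 3 to 4 in HF week 3 against control; 0 was reached without HF week 5 library 1 in HF week 5 against control and in Recovery weeks 9, 11 and 19, without HF week 3 library 1 or HF week 5 library 2 or 3 in HF week 5 against HF week 3, and without any 1 library of the recovery week at weeks 7, 9, 11 and 13. Where an arm then held 1 library, it was assumed to vary like the other groups. With HF week 5 library 3 alone the count was 0 for HF week 5 against control and for Recovery weeks 7, 9, 11, 13 and 19 against HF week 5. With only the groups compared in the fit, and so fewer samples, it was 1 for HF week 5 against control, 2 for HF week 3 against control, 0 for HF week 5 against HF week 3, 1 for Recovery week 19 against HF week 5 and 0 at weeks 7, 9, 11 and 13. At an unadjusted p it was 3 at weeks 9 and 13 and 1 for Recovery week 19 against control, where 23.3%, 26.2% and 2.88% of all genes passed. Without the HF week 3 libraries it was 3 at weeks 9 and 13. With no filter on low values it was 0 at weeks 9 and 11, and with a minimum mean of 1 FPKM it was 1 for Recovery week 19 against HF week 5, since Il6ra is then not tested. At week 11 it was 0 with median centring and without the trend, and 1 with a pseudocount of 0.1 and with quantile normalization, which gave 2 in HF week 5 against HF week 3. Apart from the unadjusted counts, the counts of this paragraph stand without the share of all genes called in the same fit. They describe how the member calls move and do not compare the members with all genes. Other causes were not tested.

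No paired analysis was possible because the column names carry no replicate letters. Groups of 2 or 3 libraries limit each comparison with HF, and Il6 lay at about 0 to 7.39 fragments in the 23 libraries with an estimate.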
